A study of Homo sapiens with 12 samples.

Results

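The genes described here are 10 components of the unfolded protein response, taken by name: the sensors EIF2AK3, ERN1 and ATF6, the transcription factor XBP1, the chaperones and folding enzymes HSPA5, HSP90B1, DNAJB9, PDIA4 and CALR, and the degradation component HERPUD1. All 10 were measured, by 16 probe sets that name a single member, among 11963 genes on the array. RNA of RKO cells, an established human colorectal cancer line, was measured on 12 oligonucleotide arrays, 3 for each of 4 groups. The groups were control cells, cells given thymoquinone (TQ) at 20 µM, cells given 5-fluorouracil (5-FU) at 10 µg/mL (76.8 µM), and cells given both drugs at those doses (TQ+5-FU). The methods give a treatment of 24 h and say that control cells received DMSO, while the labels call them untreated, so solvent and drug cannot be told apart if the labels are right. Every group is 1 cell line, and in a bulk extract fewer cells of a type and less RNA per cell cannot be told apart.

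The unfolded protein response reports on unfolded protein in the lumen of the endoplasmic reticulum (ER). PERK (gene EIF2AK3) phosphorylates eIF2alpha and slows translation while favouring that of ATF4, IRE1 (ERN1) splices the mRNA of XBP1 into a form that encodes an active transcription factor, and ATF6 is cleaved after transport to the Golgi to release one. BiP (HSPA5) holds the sensors inactive, and it is itself a target of the response together with other chaperones and degradation factors. The arrays measured transcript levels, so kinase activity, XBP1 splicing and ATF6 cleavage were not measured.

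Several members carry the binding motif of this response next to their start, and these windows are shown because they mark which measured genes have it. RefSeq windows of GRCh38.p14, running from 250 bases before to 50 bases after each start and written on the strand of the gene, were searched on both strands for 4 motifs. The ER stress response element (ERSE) was taken as CCAAT, 9 bases of any kind and CCACG, and ERSE-II as ATTGG, 1 base and CCACG. The UPRE was taken as TGACGTGG and the amino acid response element (CARE) as TGATGNAA. Capitals mark the ERSE in the HSPA5 window (chr9:125241294-125241593, minus strand), 2 matches in the HSP90B1 window (chr12:103930160-103930459, plus strand), 1 in the CALR window (chr19:12938359-12938658, plus strand) and 1 in the XBP1 window (chr22:28800520-28800819, minus strand), and the ERSE-II in the HERPUD1 window (chr16:56931892-56932191, plus strand).
HSPA5: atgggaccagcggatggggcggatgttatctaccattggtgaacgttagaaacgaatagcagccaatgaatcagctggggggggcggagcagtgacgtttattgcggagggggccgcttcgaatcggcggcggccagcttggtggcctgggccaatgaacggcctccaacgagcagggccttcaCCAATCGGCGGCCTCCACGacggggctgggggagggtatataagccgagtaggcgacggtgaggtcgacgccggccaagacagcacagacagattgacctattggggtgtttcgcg
HSP90B1: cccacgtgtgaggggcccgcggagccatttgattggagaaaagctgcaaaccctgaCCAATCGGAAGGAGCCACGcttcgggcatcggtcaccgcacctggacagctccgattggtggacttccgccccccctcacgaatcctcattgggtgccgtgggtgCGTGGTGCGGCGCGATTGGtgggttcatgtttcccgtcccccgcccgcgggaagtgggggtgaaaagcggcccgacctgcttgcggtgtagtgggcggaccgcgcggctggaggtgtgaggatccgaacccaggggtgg
CALR: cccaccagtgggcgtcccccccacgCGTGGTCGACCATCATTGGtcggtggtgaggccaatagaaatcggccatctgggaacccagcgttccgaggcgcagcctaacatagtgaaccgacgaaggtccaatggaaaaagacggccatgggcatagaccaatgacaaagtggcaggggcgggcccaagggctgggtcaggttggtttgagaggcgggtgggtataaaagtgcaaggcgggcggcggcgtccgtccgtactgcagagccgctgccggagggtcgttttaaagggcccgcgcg
XBP1: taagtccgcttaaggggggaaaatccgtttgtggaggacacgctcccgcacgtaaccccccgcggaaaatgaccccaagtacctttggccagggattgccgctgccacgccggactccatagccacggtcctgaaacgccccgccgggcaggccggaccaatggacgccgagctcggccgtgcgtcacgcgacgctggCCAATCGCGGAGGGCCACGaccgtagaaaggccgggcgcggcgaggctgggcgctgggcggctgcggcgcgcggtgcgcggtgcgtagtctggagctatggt
HERPUD1: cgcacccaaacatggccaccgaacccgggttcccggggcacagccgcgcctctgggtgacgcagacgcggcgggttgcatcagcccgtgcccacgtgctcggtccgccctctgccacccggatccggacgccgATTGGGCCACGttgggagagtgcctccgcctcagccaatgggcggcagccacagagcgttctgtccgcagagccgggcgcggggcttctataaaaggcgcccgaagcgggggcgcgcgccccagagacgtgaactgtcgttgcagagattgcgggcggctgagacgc
The ERSE was in 27 of 35116 windows (0.0769%), and 4 of the 10 members held it. The ERSE-II was in 19 windows (0.0541%), HERPUD1 among them. CARE was in 1270 windows (3.62%), of which HERPUD1 was the member, and UPRE was in 256 (0.729%), none of a member. In HSPA5 the element began 66 bases before the start, in XBP1 52 and in HERPUD1 117. HSP90B1 held matches beginning 194 and 89 bases before the start, the nearer one on the other strand, and the CALR match began 225 bases before the start on the other strand. EIF2AK3, ERN1, ATF6, DNAJB9 and PDIA4 had no match, which says only that these letters are not in their windows.

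**Figure D1:**
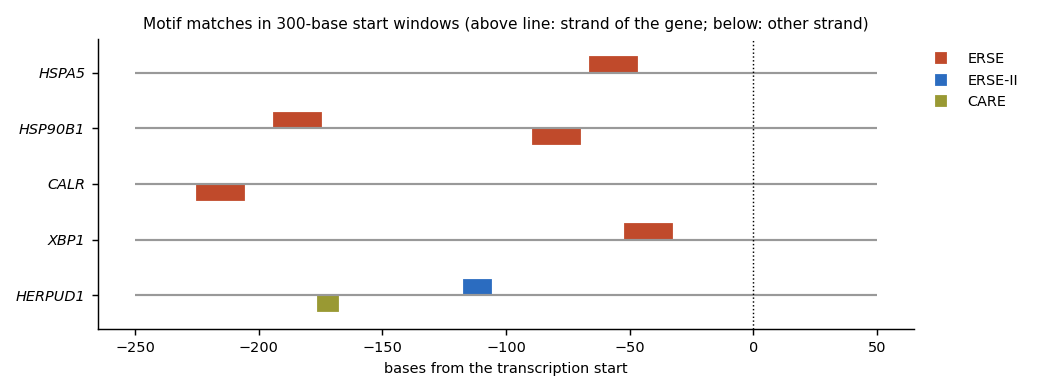
Motif matches in the 300-base windows of 5 members, by distance in bases from the transcription start (dotted line); boxes above a line lie on the strand of the gene and boxes below it on the other strand. The ERSE boxes of HSPA5 and XBP1 begin 66 and 52 bases before the start, and HSP90B1 has 2.

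Before the results, 2 arrays stood apart from the others by their median log2 signal. It was 6.3312 in 5-FU replicate 3 and 6.4263 in TQ+5-FU replicate 2, against 6.4986 to 6.5529 in the other 10 arrays. 5-FU replicate 3 also had a low mean correlation with its own group, 0.911. The other 10 arrays had 0.952 to 0.998, 5-FU replicates 1 and 2 included. TQ+5-FU replicate 2, at 0.978, lay within that range, close to the 0.984 and 0.990 of its group. The correlation therefore does not set TQ+5-FU replicate 2 apart. Against the other 5-FU arrays, the log2 signals of the members in 5-FU replicate 3 differed by between -2.44 (EIF2AK3) and 0.73 (ERN1), with 6 members lower and 4 higher. In TQ+5-FU replicate 2 the same difference ran from -1.41 (EIF2AK3) to 0.37 (ERN1), again with 6 lower and 4 higher. The difference between 3' and 5' GAPDH probe sets, a sign of RNA length, was 0.063 and 0.13 in these arrays on the log2 scale, against 0.046 to 0.089 in the others. For ACTB it was 0.56 and 0.89, against 0.57 to 0.96, so TQ+5-FU replicate 2 lay above the others for GAPDH only. Fits were repeated without both arrays, without each alone and with array weights, and results of the members are therefore given with all 12 arrays and without these 2. Without them the 5-FU and TQ+5-FU groups hold 2 arrays each. The smaller SE and p-values of that fit follow the removal of arrays chosen with results known. Of the defining markers, KRT18 and EPCAM of 9 epithelial genes were among the 25% brightest probe sets, and none of 7 leukocyte, 7 fibroblast or 5 endothelial genes were. Of the 9 epithelial genes 4 were dimmer than the median probe set, as were 7 leukocyte, 6 fibroblast and 5 endothelial genes. The summed linear signals of all 4 lists were highest in 5-FU replicate 3 (leukocyte 341, against 207 to 228 in controls).

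**Figure D2:**
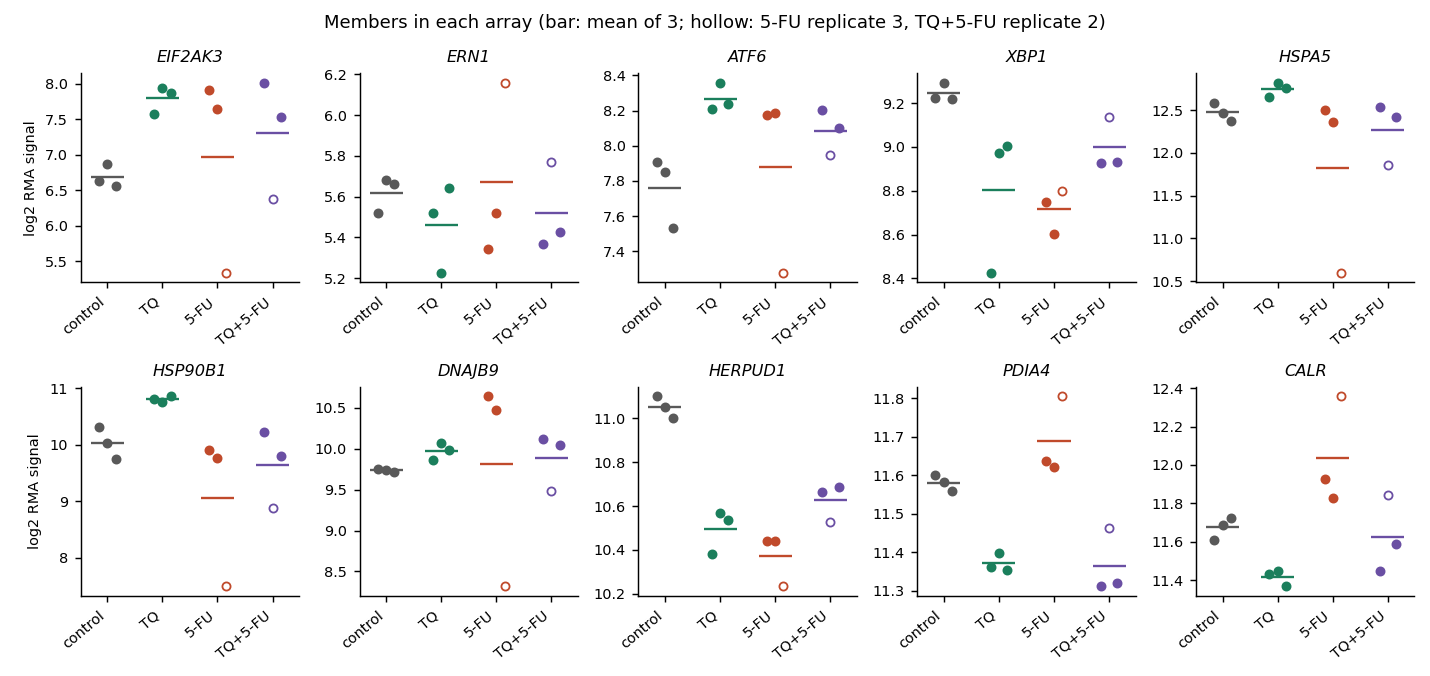
log2 signal of each member (1 panel per gene, its own vertical axis) in the 3 arrays of each group, with the group mean as a bar and the 2 displaced arrays hollow. All TQ arrays of EIF2AK3, ATF6, HSPA5, HSP90B1 and DNAJB9 lie above all controls, and all TQ arrays of XBP1, HERPUD1, PDIA4 and CALR lie below them.

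With TQ alone the members split by direction, the PERK and ATF6 sensors and 3 chaperones on the high side and XBP1, HERPUD1, PDIA4 and CALR on the low side. In 9 of 10 members the 3 TQ arrays lay outside the range of the 3 controls, 5 above and 4 below, against 46.4% of all genes. With all 12 arrays no member passed the test (limma, Benjamini-Hochberg adjusted p under 0.05), while 0.267% of all genes did. At an unadjusted p under 0.05 there were 3 members. No share of all genes is given at that looser threshold, here or below, so such counts show no excess among the members. With the 2 displaced arrays left out, 9 of 10 passed, 5 higher and 4 lower, against 32.4% of all genes. Neither displaced array belongs to the TQ or control group, so the TQ fold changes are the same in both fits and only the pooled spread differs. The median log2 fold change of the members was 0.04, beside -0.09 over all genes.

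EIF2AK3, which encodes PERK, had the largest TQ difference of the members. The log2 signal of its probe set was 6.63, 6.87 and 6.56 in the controls and 7.58, 7.95 and 7.87 with TQ. It was 7.91, 7.65 and 5.34 with 5-FU and 8.02, 6.37 and 7.54 with TQ+5-FU. All TQ arrays were above all controls, whereas in the other treated groups the displaced array lay below the controls and the remaining arrays above them. The log2 fold change with TQ was 1.11 ± 0.61 (SE, limma, Benjamini-Hochberg adjusted p = 0.631), and without the displaced arrays 1.11 ± 0.15 (adjusted p = 0.000642). EIF2AK3 was then also higher with 5-FU, by 1.09 ± 0.16 (adjusted p = 0.000564), and with TQ+5-FU, by 1.09 ± 0.16 (adjusted p = 0.00107), so that the 3 treated means were 7.80, 7.78 and 7.78. With all arrays the values for 5-FU and TQ+5-FU were 0.28 ± 0.61 and 0.62 ± 0.61 and passed no test. The study had placed EIF2AK3 on a list of shared genes, past its fold-change and p cutoffs with each treatment. That list was chosen on these samples, so its direction is not independent evidence. With all arrays the fold here was 2.16 with TQ, 1.21 with 5-FU and 1.54 with TQ+5-FU. The study also measured EIF2AK3 by RT-qPCR and reported no significant difference from control in any treated group. There its level with TQ+5-FU was significantly lower than with either drug alone, a difference not seen between the treated means without the displaced arrays. With all arrays TQ+5-FU was lower than TQ (-0.49 ± 0.61) and higher than 5-FU (0.34 ± 0.61). Neither passed (limma, Benjamini-Hochberg adjusted p = 0.781 and 0.806).

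ATF6, the sensor that becomes a transcription factor, differed by less. The controls had log2 signals of 7.91, 7.85 and 7.53, and the treated arrays 8.21, 8.36 and 8.24 with TQ, 8.17, 8.19 and 7.28 with 5-FU, then 8.20, 7.95 and 8.10 with TQ+5-FU. All TQ and all TQ+5-FU arrays were above the controls, and 5-FU replicate 3 was below them. The TQ log2 fold change was 0.50 ± 0.22 with all arrays (limma, Benjamini-Hochberg adjusted p = 0.504) and 0.50 ± 0.10 without the displaced arrays (adjusted p = 0.00393). Without them ATF6 was also higher with 5-FU (0.42, adjusted p = 0.0183) and TQ+5-FU (0.39, adjusted p = 0.0313). A second, dimmer ATF6 probe set gave 0.18 with TQ and passed in no comparison (adjusted p = 0.263 for TQ without those arrays).

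ERN1, which encodes IRE1, passed in no comparison under either set of arrays. Log2 signals of ERN1 were 5.52, 5.68 and 5.66 in the controls, 5.52, 5.23 and 5.64 with TQ, 5.34, 5.52 and 6.16 with 5-FU, then 5.37, 5.77 and 5.43 with TQ+5-FU, and every treated group overlapped the controls. Its probe set was dim, with 38.2% of probe sets dimmer still. The 95% interval of its TQ log2 fold change ran from -0.40 to 0.08 without the displaced arrays, so a difference of the size of EIF2AK3 lies outside it.

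XBP1, whose spliced mRNA encodes the factor made by the IRE1 branch, was lower in every treated array than in every control. Log2 signals of XBP1 were 9.23, 9.29 and 9.22 in the controls, 8.43, 8.97 and 9.01 with TQ, 8.75, 8.60 and 8.80 with 5-FU, then 8.93, 9.14 and 8.93 with TQ+5-FU. TQ replicate 1 was the lowest of the 12. With all arrays the log2 fold changes were -0.44 ± 0.15 for TQ, -0.53 ± 0.15 for 5-FU (limma, Benjamini-Hochberg adjusted p = 0.078) and -0.25 ± 0.15 for TQ+5-FU, and none passed. XBP1 fell by 0.44 with TQ without the displaced arrays (adjusted p = 0.0298) and fell by 0.57 with 5-FU (adjusted p = 0.0169), while TQ+5-FU gave -0.32 (adjusted p = 0.17).

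HERPUD1 supports the degradation complex of the ER membrane, and it was the member with the clearest difference from control. Log2 signals of HERPUD1 were 11.10, 11.05 and 10.9995 in the controls and 10.38, 10.57 and 10.54 with TQ. They were 10.44, 10.44 and 10.24 with 5-FU and 10.66, 10.53 and 10.69 with TQ+5-FU. All 9 treated arrays were below all controls, and the displaced arrays lay within 0.21 of the mean of the others of their group. With all 12 arrays HERPUD1 fell by 0.68 ± 0.11 with 5-FU (limma, Benjamini-Hochberg adjusted p = 0.00371), the only member of 10 to pass against control, where 7.29% of all genes passed. TQ gave -0.55 ± 0.11 (adjusted p = 0.0719) and TQ+5-FU -0.42 ± 0.11 (adjusted p = 0.0707), and both passed without the displaced arrays (adjusted p = 0.000699 and 0.0088). The fall with 5-FU held when each array in turn was left out, with adjusted p from 0.00167 to 0.027, and did not pass when only the control and 5-FU arrays were fitted (limma, adjusted p = 0.104). HERPUD1 was also the only member of 10 to pass the F test across the 4 groups (adjusted p = 0.0119), against 8.19% of all genes, and that call was lost without control replicate 1 or control replicate 2, which left 0 members called. In the fit without the displaced arrays 9 of 10 members passed the F test, ERN1 being the exception, against 44.9% of all genes.

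**Figure D3:**
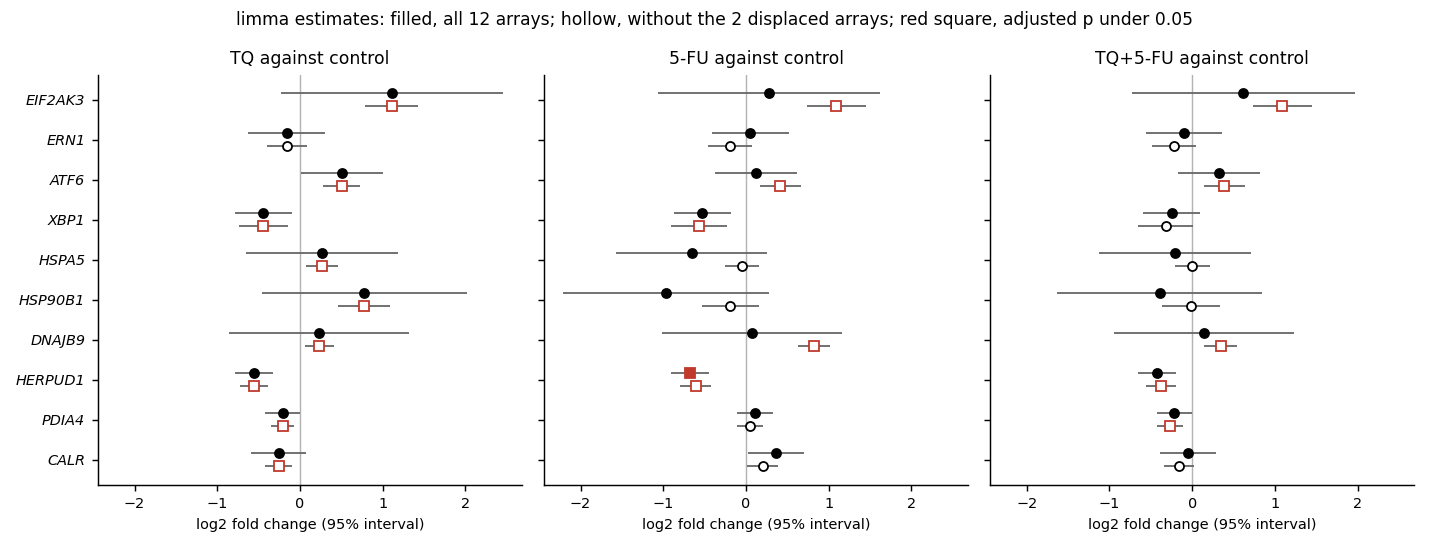
log2 fold change of each member against control, with 95% intervals from limma, for TQ, 5-FU and TQ+5-FU; filled points use all 12 arrays, hollow points leave out the 2 displaced arrays, and red squares have an adjusted p under 0.05. HERPUD1 with 5-FU is the only filled red square, and 9, 5 and 5 members are hollow red squares.

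With 5-FU alone, and the displaced arrays left out, 5 of 10 members passed against control (EIF2AK3, ATF6 and DNAJB9 higher, XBP1 and HERPUD1 lower), where 28.3% of all genes did. In 4 members the 5-FU arrays did not overlap the controls, with XBP1 and HERPUD1 below and PDIA4 and CALR above, beside 25.7% of all genes. With TQ+5-FU no member passed with all 12 arrays, while 2.63% of all genes did. At an unadjusted p under 0.05, where no share of all genes is given, there were 2 members. When the displaced arrays were left out 5 passed, EIF2AK3, ATF6 and DNAJB9 higher and HERPUD1 and PDIA4 lower, against 22.7% of all genes. The combination did not overlap the controls in 4 members (ATF6 above, and XBP1, HERPUD1 and PDIA4 below), beside 24.7% of all genes. These counts use the brightest probe set of each gene. On the other probe sets of PDIA4 and CALR the 5-FU arrays overlapped the controls. The TQ+5-FU arrays did so on the second probe sets of ATF6 and PDIA4. With all arrays the member medians were 0.06 for 5-FU and -0.15 for TQ+5-FU, beside 0.09 and 0.01 over all genes, and without the displaced arrays they were -0.0002 and -0.09, beside -0.0072 and -0.03.

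HSPA5 encodes BiP, the main chaperone of the ER lumen and the partner of the 3 sensors. Its log2 signal was 12.58, 12.47 and 12.37 in the controls and 12.65, 12.82 and 12.76 with TQ. It was 12.50, 12.35 and 10.60 with 5-FU and 12.54, 11.85 and 12.42 with TQ+5-FU. Outside TQ, the treated arrays lay within or just below the control range, except the displaced arrays, which were well below it. The TQ log2 fold change was 0.27 ± 0.41 (limma, Benjamini-Hochberg adjusted p = 0.855), and 0.27 ± 0.09 without the displaced arrays (adjusted p = 0.036). Without them 5-FU gave -0.05 with a 95% interval from -0.26 to 0.16, and TQ+5-FU gave 0.00 with an interval from -0.21 to 0.21.

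HSP90B1 encodes GRP94, the ER member of the HSP90 family. Its log2 signal was 10.30, 10.03 and 9.75 in the controls and 10.80, 10.75 and 10.86 with TQ. It was 9.91, 9.77 and 7.50 with 5-FU and 10.22, 8.89 and 9.81 with TQ+5-FU. The TQ arrays were close together and above every other array of the 12. It rose by 0.78 ± 0.14 with TQ without the displaced arrays (limma, Benjamini-Hochberg adjusted p = 0.0025), and with all arrays the value was 0.78 ± 0.56 (adjusted p = 0.717). A second probe set that names HSP90B1 alone gave 0.61 ± 0.08 without those arrays (adjusted p = 0.000799), and 2 further probe sets that also name MIR3652 gave 0.75 and 0.71. On that second probe set 5-FU was lower than control without the displaced arrays (-0.40, adjusted p = 0.00956), whereas the first gave -0.19 (adjusted p = 0.451).

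DNAJB9 encodes ERdj4, a cochaperone of BiP. In log2 signal DNAJB9 was 9.76, 9.74 and 9.72 in the controls and 9.86, 10.07 and 9.99 with TQ. It was 10.65, 10.48 and 8.32 with 5-FU and 10.12, 9.48 and 10.05 with TQ+5-FU. 5-FU replicates 1 and 2 were the highest of the 12 arrays and replicate 3 the lowest. With all arrays the 5-FU log2 fold change was 0.07 ± 0.49 (limma, Benjamini-Hochberg adjusted p = 0.941), and without the displaced arrays it was 0.82 ± 0.09 (adjusted p = 7.58e-05). Without them DNAJB9 was also higher with TQ (0.23, adjusted p = 0.0466) and with TQ+5-FU (0.34, adjusted p = 0.0188). The second DNAJB9 probe set gave 1.03, 0.57 and 0.74 for 5-FU, TQ and TQ+5-FU, and all 3 passed without those arrays.

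PDIA4, a disulfide isomerase also called ERp72, separated the groups that received TQ from the other groups on its brighter probe set only. Its log2 signal was 11.60, 11.58 and 11.56 in the controls, 11.36, 11.40 and 11.35 with TQ, 11.64, 11.62 and 11.81 with 5-FU, then 11.31, 11.46 and 11.32 with TQ+5-FU. Both groups that received TQ lay below all controls, and 5-FU lay above them. The log2 fold changes were -0.21 ± 0.10 for TQ, 0.11 ± 0.10 for 5-FU and -0.22 ± 0.10 for TQ+5-FU, and none passed with all arrays. TQ and TQ+5-FU passed without the displaced arrays (limma, Benjamini-Hochberg adjusted p = 0.0297 and 0.0221). The second PDIA4 probe set had the same sign for TQ (-0.31, adjusted p = 0.0145) and the opposite one for 5-FU, where it was lower than control (-0.27, adjusted p = 0.048) without those arrays. For TQ+5-FU it gave -0.24 and did not pass (adjusted p = 0.0795), so on that probe set 5-FU alone was not apart from the groups that received TQ.

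CALR encodes calreticulin, the calcium-binding lectin chaperone of glycoproteins. In log2 signal CALR was 11.61, 11.69 and 11.73 in the controls and 11.43, 11.45 and 11.37 with TQ. It was 11.92, 11.83 and 12.36 with 5-FU and 11.45, 11.84 and 11.59 with TQ+5-FU. On this probe set TQ lay below and 5-FU above all controls, and TQ+5-FU overlapped them. Against control the log2 fold changes were -0.26 ± 0.15 for TQ and 0.36 ± 0.15 for 5-FU (limma, Benjamini-Hochberg adjusted p = 0.661 and 0.231). TQ passed without the displaced arrays (adjusted p = 0.0236), while 5-FU gave 0.20 (adjusted p = 0.108). In that fit the other CALR probe sets gave -0.32 and -0.35 for TQ, and both passed (adjusted p = 0.0209 and 0.0437). For 5-FU they gave 0.10 and 0.16 and did not pass, and on both the 5-FU arrays overlapped the controls.

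The drugs were also compared with each other, a comparison added after the values had been seen. CALR was the only member of 10 to pass between 5-FU and TQ with all arrays, 0.62 ± 0.15 higher with 5-FU (limma, Benjamini-Hochberg adjusted p = 0.0296), where 11.1% of all genes passed and the median over all genes was 0.18. The other CALR probe sets gave 0.67 (adjusted p = 0.0343) and 0.56 (adjusted p = 0.0413). The call on CALR was lost, with the same sign, when arrays were centred on their median (0.70, adjusted p = 0.0521), under the replicate block (adjusted p = 0.0539) and when any one of the control arrays, the TQ arrays or TQ+5-FU replicate 3 was left out (adjusted p from 0.0509 to 0.114). It was also lost in a limma fit of the 5-FU and TQ arrays alone (adjusted p = 0.179), and CALR passed neither test of the methods. HSP90B1 was -1.74 ± 0.56 between 5-FU and TQ (adjusted p = 0.0753), and its second probe set passed at -1.53 (adjusted p = 0.024). The arrays of 5-FU and TQ did not overlap in 5 members, with PDIA4 and CALR higher and ATF6, HSPA5 and HSP90B1 lower with 5-FU, beside 40.8% of all genes. Without the displaced arrays 5 members passed, against 30.9% of all genes. These were DNAJB9 (0.59), CALR (0.46) and PDIA4 (0.26), higher with 5-FU, and HSP90B1 (-0.97) and HSPA5 (-0.32), lower with 5-FU. The second PDIA4 probe set gave 0.04 in that comparison (adjusted p = 0.789). For EIF2AK3 the difference was -0.02 without those arrays, with a 95% interval from -0.38 to 0.34.

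**Figure D4:**
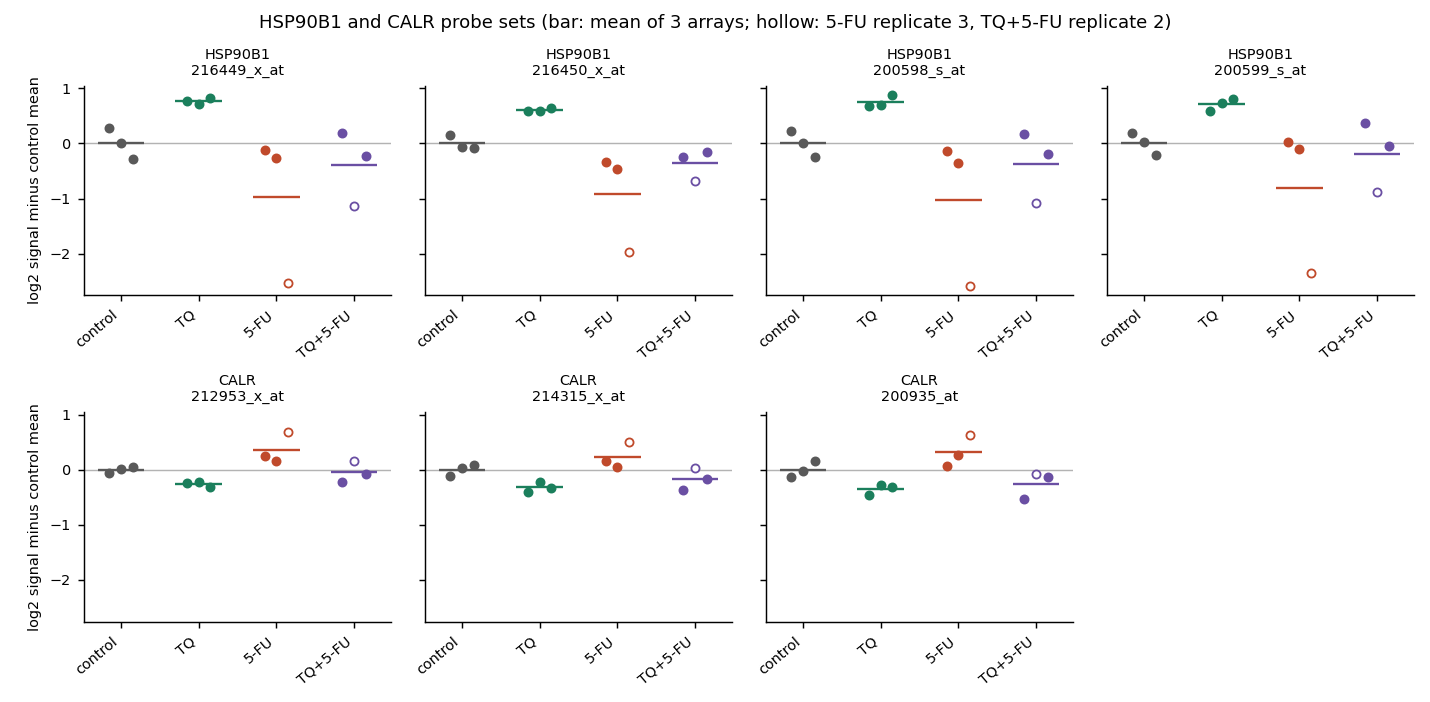
Every HSP90B1 probe set (upper row; the last 2 also name MIR3652) and every CALR probe set (lower row), as log2 signal minus the control mean in each array, with group means as bars and the 2 displaced arrays hollow. In all 4 HSP90B1 probe sets the TQ arrays lie above the 5-FU arrays, and in all 3 CALR probe sets below them.

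Adding TQ to 5-FU, or 5-FU to TQ, changed no member past the threshold with all 12 arrays. Against 5-FU alone, 0 of 10 members passed in limma and 0.802% of all genes did. At an unadjusted p under 0.05, where no share of all genes is given, there were 3 members. Without the displaced arrays 3 passed, against 6.91% of all genes, and all 3 were lower with TQ+5-FU than with 5-FU. They were DNAJB9 (-0.48, Benjamini-Hochberg adjusted p = 0.0169), PDIA4 (-0.31, adjusted p = 0.0397) and CALR (-0.36, adjusted p = 0.0446). The other probe sets of these genes gave -0.29 for DNAJB9, 0.02 for PDIA4, and -0.37 and -0.50 for CALR, and none of them passed. Against TQ alone no member passed with all arrays (1.15% of all genes did, and 0 members had an unadjusted p under 0.05). HSP90B1 alone passed without the displaced arrays, at -0.79 ± 0.16 (adjusted p = 0.0108), against 12.7% of all genes. Its other probe sets gave -0.81, -0.76 and -0.55, and all 3 passed.

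The interaction asks whether the combination departed from the sum of the single-drug log2 differences. With all arrays 0 of 10 members passed, while 0.167% of all genes did. At an unadjusted p under 0.05, where no share of all genes is given, there were 2 members, XBP1 and HERPUD1. The HERPUD1 interaction was 0.81 ± 0.15 (limma, Benjamini-Hochberg adjusted p = 0.0952), a positive value standing for a signal above the sum of the single-drug differences. Without the displaced arrays 3 members passed, against 11.1% of all genes: HERPUD1 at 0.79 (adjusted p = 0.00451), EIF2AK3 at -1.11 (adjusted p = 0.0164) and DNAJB9 at -0.71 (adjusted p = 0.00883). For EIF2AK3 each drug and the combination gave nearly the same log2 difference from control in that fit.

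The other genes of the pathway were read from 6 lists holding 92 genes, of which 77 were measured. With all arrays 2 of 77 passed for TQ (2.6%, 1 higher and 1 lower), 10 for 5-FU (13%, 5 higher and 5 lower) and 4 for TQ+5-FU (5.19%, 2 higher and 2 lower), beside 0.267%, 7.29% and 2.63% of all genes. Without the displaced arrays these counts were 31, 35 and 29, or 40.3%, 45.5% and 37.7%, beside 32.4%, 28.3% and 22.7% of all genes. Calls below are those with all arrays unless the text says otherwise. The medians of all 77 were -0.04, -0.16 and -0.01 with all arrays, and -0.04, -0.02 and -0.03 in the fit of 10 arrays.

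The translation arm covers the eIF2alpha kinases and the output of PERK through ATF4 and CHOP. It held 11 measured genes, of which 1 was higher and 1 lower with TQ, 1 higher and 3 lower with 5-FU, and 1 higher and 1 lower with TQ+5-FU. The fit without the displaced arrays gave 3 higher and 3 lower with TQ, 3 higher and 5 lower with 5-FU, and 5 higher and 2 lower with TQ+5-FU. ATF4, the factor whose translation PERK favours, had log2 signals of 13.21, 13.15 and 13.19 in the controls, 12.67, 12.53 and 12.53 with TQ, 12.02, 12.005 and 12.18 with 5-FU, then 12.68, 12.80 and 12.66 with TQ+5-FU. Its mRNA fell by 0.61 with TQ, fell by 1.12 with 5-FU and fell by 0.47 with TQ+5-FU (limma, Benjamini-Hochberg adjusted p = 0.043, 0.00016 and 0.0342), and no treated array overlapped the controls. ATF3, a stress-induced transcription factor, rose by 0.80, 2.92 and 2.57 (adjusted p = 0.0497, 2.92e-06 and 1.07e-05). The calls on ATF4 with TQ and with TQ+5-FU and on ATF3 with TQ were lost in 11, 9 and 10 of the 12 fits that left out 1 array (highest adjusted p = 0.284, 0.166 and 0.26), and all 3 passed without the displaced arrays (adjusted p = 0.000427, 0.00118 and 0.000542). CHAC1, a glutathione-degrading target of ATF4, and ASNS, asparagine synthetase, fell with 5-FU by 1.62 and 1.28 (adjusted p = 0.00676 and 0.00296). In that second fit CHAC1 also passed with TQ (-1.64, adjusted p = 4.77e-05) and with TQ+5-FU (-0.57, adjusted p = 0.014), and ASNS with TQ+5-FU (0.49, adjusted p = 0.00588). ASNS and ATF4 were higher with TQ+5-FU than with 5-FU alone (1.73 and 0.64, adjusted p = 0.00361 and 0.0183), and the interaction passed for ATF4 (1.25, adjusted p = 0.0306) and CHAC1 (2.88, adjusted p = 0.0318). DDIT3, which encodes CHOP and is named here after its values were seen, gave 0.60, 0.23 and 1.31 for TQ, 5-FU and TQ+5-FU with all arrays and did not pass. DDIT3 gave 0.60, 0.76 and 1.35 without the displaced arrays and passed in all 3 comparisons (adjusted p = 0.00151, 0.000443 and 2.67e-05). The first gene of the list, EIF2AK1, another eIF2alpha kinase, gave -0.13, -0.40 and -0.14 and passed in neither fit.

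Among 14 other ER chaperones and cochaperones, DNAJC1, a J-domain cochaperone, was the only one to pass against control with all 12 arrays, 0.65 higher with 5-FU (limma, Benjamini-Hochberg adjusted p = 0.0473). That call was lost in 11 of 12 fits with 1 array left out (adjusted p up to 0.174) and passed without the displaced arrays (0.87, adjusted p = 4.4e-05), where 4 genes of the list were higher and 2 lower with TQ, 1 higher and 3 lower with 5-FU, and 1 higher and 2 lower with TQ+5-FU. DNAJC3, the cochaperone p58IPK, gave 0.71 with TQ (adjusted p = 0.191, and 0.00105 without the displaced arrays) and was lower with 5-FU than with TQ (-0.81, adjusted p = 0.0245, and -0.62, adjusted p = 0.00283, without the displaced arrays), the direction of HSPA5 and HSP90B1. CANX, calnexin, the membrane counterpart of CALR, gave 0.16, -1.14 and -0.37 for TQ, 5-FU and TQ+5-FU and did not pass, its lowest array being 5-FU replicate 3 (9.27, against 12.29 and 12.18 in the other 5-FU arrays). CANX gave 0.16, -0.15 and -0.10 in the fit of the 10 other arrays and did not pass there. None of 8 oxidative folding genes passed against control with all 12 arrays. In the fit of 10 arrays ERO1A and ERO1B were higher with TQ, ERO1B was higher and PDIA3, PDIA6 and PRDX4 were lower with 5-FU, and ERO1B was higher with TQ+5-FU. With all arrays PDIA3, a disulfide isomerase, gave -0.18, -0.52 and -0.36 (-0.33 with 5-FU without the displaced arrays, adjusted p = 0.0468), and P4HB, another, gave -0.19, -0.01 and -0.17 and passed in neither fit.

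Of 11 genes of ER-associated degradation, UFD1, part of the p97 extraction complex, passed with 5-FU (0.37 higher, limma, Benjamini-Hochberg adjusted p = 0.0333), opposite in sign to HERPUD1. The call was lost in 10 of 12 fits with 1 array left out (adjusted p up to 0.159), and without the displaced arrays UFD1 passed with 5-FU (0.39, adjusted p = 0.00381) and with TQ+5-FU (0.26, adjusted p = 0.0388). In that fit 1 gene of the list was higher and 2 lower with TQ, 2 higher and 2 lower with 5-FU, and 2 higher and 3 lower with TQ+5-FU. SEL1L, the scaffold of the HRD1 ligase, gave 0.86, -0.39 and -0.29 with all arrays and did not pass. Of its 3 other probe sets 0 passed, and 3 had the opposite sign with 5-FU and 2 with TQ+5-FU. SEL1L passed with TQ when the displaced arrays were left out (adjusted p = 0.0107), and 5-FU and TQ+5-FU turned to 0.40 and 0.41 without passing (adjusted p = 0.259 and 0.26). The lectin OS9 gave -0.32, 0.22 and 0.04 and did not pass with all arrays, and without the displaced arrays it passed with TQ (adjusted p = 0.00543) and gave 0.07 and -0.03 with the others.

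Of 19 genes of translocation and ER export, SSR3 and SEC63 fell with 5-FU by 1.25 and 0.83 (limma, Benjamini-Hochberg adjusted p = 0.0366 and 0.0458). Without 5-FU replicate 3 the value of SSR3 was -0.80, which still passed, and both genes passed without both displaced arrays (adjusted p = 0.000259 and 0.000766). The calls were lost in 8 and 9 of 12 fits with 1 array left out (adjusted p up to 0.126 and 0.179), and of 2 other SEC63 probe sets 0 passed and 1 had the opposite sign. In the fit of 10 arrays the list had 6 genes higher and 1 lower with TQ, 3 higher and 4 lower with 5-FU, and 4 higher and 4 lower with TQ+5-FU. KDELR3, a receptor that returns chaperones with a retrieval signal to the ER, rose with 5-FU (0.87, adjusted p = 0.000475) and with TQ+5-FU (0.52, adjusted p = 0.0163). Its call with TQ+5-FU was lost in 5 of 12 fits with 1 array left out (adjusted p up to 0.105), and of its 2 other probe sets 0 passed. SEC61A1, the channel subunit, gave -0.30, 0.38 and -0.0015 and did not pass with all arrays, and passed with TQ without the displaced arrays (adjusted p = 0.0152). Of 14 genes of sensor activation and ER stress death, CREB3, an ER-anchored transcription factor, was 1.13 higher with 5-FU (adjusted p = 0.00631), and its relative CREB3L2 fell by 0.73 with TQ+5-FU (adjusted p = 0.0191). The CREB3L2 call was lost in 5 of 12 fits with 1 array left out (adjusted p up to 0.0954). With the displaced arrays left out CREB3 also passed with TQ+5-FU (0.74, adjusted p = 0.00188) and CREB3L2 in all 3 comparisons, and the list had 3 genes higher and 4 lower with TQ, 5 higher and 3 lower with 5-FU, and 3 higher and 2 lower with TQ+5-FU. MBTPS1, the protease that cuts ATF6 in the Golgi, gave -0.47, -0.06 and -0.24 and did not pass with all arrays. MBTPS1 passed with TQ in the fit of 10 arrays (adjusted p = 0.00201), where 5-FU gave 0.05.

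**Figure D5:**
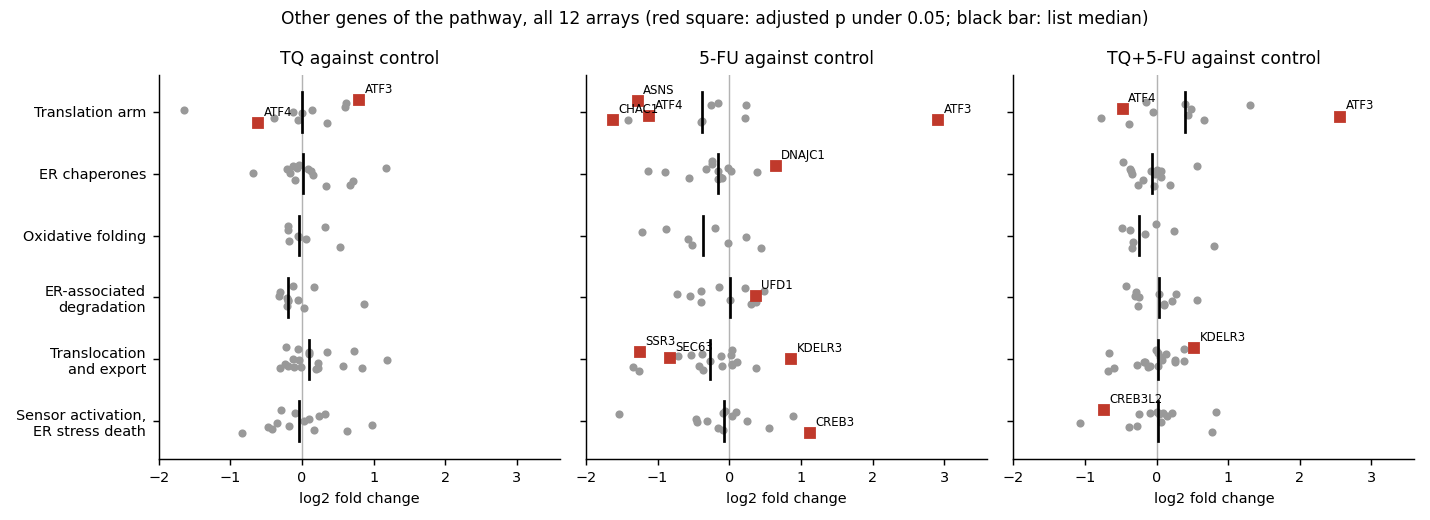
log2 fold change against control of the 77 other pathway genes, 1 point per gene and 1 row per list, for TQ, 5-FU and TQ+5-FU with all 12 arrays; red squares have an adjusted p under 0.05 and black bars are list medians. The 2, 10 and 4 genes that passed are named, and ATF3 lies farthest to the right with 5-FU and with TQ+5-FU.

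Some members varied together across arrays, which is given as a description. Over 12 arrays EIF2AK3 had Pearson's r of 0.93 with ATF6, 0.89 with DNAJB9 and 0.82 with HSPA5, HSPA5 had 0.97 with HSP90B1, and CALR had -0.92 with HSP90B1. All of these share the displaced arrays, and over the 10 other arrays the values were 0.91, 0.68, 0.41, 0.95 and -0.81. XBP1 and HERPUD1 had 0.79 with each other (0.89 over 10 arrays) and between -0.33 and 0.41 with EIF2AK3, ATF6 and HSPA5. Over the 10 other arrays HERPUD1 had -0.86 with EIF2AK3, -0.80 with ATF6 and -0.27 with HSPA5, and XBP1 had -0.62, -0.63 and -0.05. The genes most like EIF2AK3 over 12 arrays were FAM8A1, STK3, TRAK2, ATP10D and TUBD1 (r from 0.985 to 0.989), and without the displaced arrays they were SYF2, FZD6, ECI2, SPTLC1 and TIPRL (r from 0.982 to 0.988 over 10 arrays). For HSPA5 they were THAP12, TMEM123, PPP1CC, CAPRIN1 and SLC25A24 (r from 0.997 to 0.999 over 12 arrays), and THAP12, SUZ12, PPP2R5E, HAUS6 and CUL2 (r from 0.978 to 0.985 over 10 arrays). Such likeness was common, since 663 genes had an r above 0.9 with EIF2AK3 and 1624 with HSPA5 over 12 arrays, and 361 and 408 over 10.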

How the data were processed

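Transcript levels in RKO cells came from 12 arrays, 3 in each of 4 groups. The authors normalized the arrays by RMA and deposited log2 signals for 22277 probe sets. The methods name GeneSpring GX and the submitters' processing notes Affymetrix Expression Console. Array medians ran from 6.33 to 6.55 on the log2 scale, and values were used as deposited. The 62 control probe sets were left out.

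One mean per group was fitted to all 12 arrays with limma 3.58.1 in R 4.3.3, with default empirical Bayes moderation. p-values are two-sided and adjusted by Benjamini-Hochberg over 22215 probe sets, with a threshold of 0.05. The interaction subtracts both single-drug differences from that of the combination. Biological replication is mentioned in the methods, but no label ties an array to its own culture, so p-values rest on the spread among the 12 arrays, and their number limits the precision. For each gene the brightest probe set by mean signal was used, out of the 19064 that name 1 gene (1043 name several). The fit was tested on simulated data.

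Members, lists and the 2 displaced arrays were chosen with earlier results of these data known, and the comparison of 5-FU with TQ was added after the data were examined. Of each list, the text names up to 3 genes per comparison with control that passed, by size (the smallest p where none passed), and the first measured gene. DDIT3 was named after its values were seen. Promoter windows and loci come from RefSeq (GRCh38.p14). The alternatives were array weights, centring, quantile normalization, a trended robust prior, 2-group fits, the mean of probe sets, the replicate block, both tests of the methods (ANOVA followed by Tukey's HSD, and a t-test), a filter on the 30% dimmest probe sets, and leaving out single arrays or both displaced ones.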

Additional observations from a re-analysis of the deposited data

How the results depend on the processing

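Counts of members called against control were 0 for TQ, 1 for 5-FU and 0 for TQ+5-FU, 1 for the F test, 0 for TQ+5-FU against 5-FU, against TQ and for the interaction, and 1 for 5-FU against TQ. In that order they were 9, 6, 7, 9, 5, 4, 6 and 5 with array weights, and 9, 5, 5, 9, 3, 1, 3 and 5 without 5-FU replicate 3 and TQ+5-FU replicate 2. In the latter fit 32.4% of all genes passed for TQ and 44.9% passed the F test. No share of all genes is given for array weights or any other alternative in this paragraph. Those counts therefore show how calls moved with the processing, and cannot be read as particular to the members. Leaving out 1 array gave ranges of 0 to 2, 1 to 3, 0 to 1, 0 to 4, 0 to 0, 0 to 1, 0 to 1 and 0 to 2. The highest value came without 5-FU replicate 3, except for TQ+5-FU against 5-FU, where every value was 0, and 5-FU against TQ, where leaving out 5-FU replicate 1 gave as many. limma on the 2 groups compared gave 7 for TQ, 0 for 5-FU and 0 for 5-FU against TQ. Quantile normalization gave 1 for TQ and 1 for TQ+5-FU. ANOVA and Tukey's HSD, as in the methods, gave 2 for TQ, TQ+5-FU, the F test and TQ+5-FU against 5-FU, and the methods' t-test 4 for TQ, 0 for 5-FU and 0 for 5-FU against TQ. For 5-FU against TQ, centring gave 0, the trended robust prior 2 and the mean of probe sets 2. The replicate block gave 0 there and changed no other count. No pairing by replicate number was seen: over 18 same-number pairs, r ran from -0.84 to 0.86 with 6 over 0.1, and 4 of 12 arrays correlated best with their own number. The displaced arrays, which carry different numbers, had an r of 0.88 with each other. With them included, these values cannot decide whether arrays of the same number share a batch. Directions reversed for ERN1 with 5-FU (-0.19 with array weights and without both arrays) and between 5-FU and TQ (-0.031 without both), for HSPA5 with TQ+5-FU (0.0028 without both), for DNAJB9 between 5-FU and TQ (0.51 with array weights, 0.59 without both) and for XBP1 there (0.0049 under quantile normalization). With single arrays left out the log2 differences that changed sign ran from -0.037 to 0.42 (ATF6, 5-FU), -0.16 to 0.041 (CALR, TQ+5-FU), -0.34 to 0.82 (DNAJB9, 5-FU), -0.58 to 0.59 (DNAJB9, 5-FU against TQ), -0.19 to 1.09 (EIF2AK3, 5-FU), -0.19 to 0.22 (ERN1, 5-FU), -0.031 to 0.38 (ERN1, 5-FU against TQ), -0.34 to 0.0028 (HSPA5, TQ+5-FU) and -0.27 to 0.018 (XBP1, 5-FU against TQ). The cause was not tested. Dim probe sets such as that of ERN1 limit what could be seen.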
